A study of Mus musculus with 13 samples.

Results

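Dst, Macf1, Plec, Epb41l1, Epb41l2 and Epb41l3 encode proteins that tie the cytoskeleton to itself and to the cell membrane. They are 6 of the 23211 genes counted in cells sorted from around implants in mouse tibiae. Markers of marrow stromal cells were low in some of these libraries, as described below. Dst and Epb41l3 were selected on measured values of this experiment, namely their fold changes and p-values in fibrous over bone tissue. The other 4 were added as relatives of these genes. The difference of the members between fibrous and bone tissue is therefore given below as a description, without a p-value. Dst lay higher in every fibrous library than in any bone library, as did 0.0527% of the 13294 genes tested. Epb41l3 lay above every bone library in 6 of the 7 fibrous libraries, and the share of genes with that pattern was not counted. Their close relatives Macf1, Plec, Epb41l1 and Epb41l2 covered overlapping ranges in the 2 tissues.

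Spectraplakins are giant proteins that bind actin at one end and microtubules at the other, and so let the filament systems move and anchor together. Dst encodes dystonin, whose epithelial form BP230 ties keratin filaments to hemidesmosomes, and Macf1 encodes its nearest relative, the microtubule-actin crosslinking factor. Plec encodes plectin, a plakin that links intermediate filaments to actin and to adhesion sites. Proteins of the band 4.1 family have a FERM domain that holds membrane proteins and a second region that holds spectrin and actin. Epb41l1, Epb41l2 and Epb41l3 encode 4.1N, 4.1G and 4.1B, which are known from neurons, from many tissues, and from nerve axons and cell contacts.

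The series holds 13 libraries, 7 of fibrous tissue from around implants that the labels call PMMA and 6 of bone from around implants called Pressfit. The sample titles call the cells positive for the leptin receptor, LEPR, the title of the series adds that they were negative for lineage markers, and they were sorted by flow cytometry. No strain, age, genotype or time after surgery is given in the labels used here. PolyA RNA was extracted with an RNeasy Plus Micro kit, made into Illumina TruSeq libraries and read on a NovaSeq sequencer. Tissue and implant name go together, so that they cannot be told apart. Library names divide the libraries further. XY9274 marks 4 libraries (fibrous 6 and 7, bone 5 and 6) and L002 the other 9. In L002, fibrous 5, bone 3 and bone 4 hold the token Lin, fibrous 2, 3 and 4 and bone 1 and 2 hold the token plus, and fibrous 1 holds neither. What these tokens stand for is not stated. The labels do not say that libraries came from separate animals, so the p-values rest on the spread among these libraries alone, and that spread may be technical.

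Libraries held 18056208 to 44302166 counts in fibrous tissue and 16162321 to 43217004 in bone. Lepr, the gene of the sort marker, was under 5 CPM (counts scaled to a common, TMM-normalised library size) in fibrous 1 and 5 and in bone 3, 4 and 5, and between 46.7 and 804 CPM in the other 8 libraries. Haemoglobin genes took 19.97% of the counts in fibrous 5, 27.9% in bone 3 and 35.3% in bone 4, and at most 11.9% elsewhere. In bulk RNA, fewer cells of a type and less RNA per cell cannot be told apart.

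Coordinates are those of the mouse build mm10 in GENCODE M21. Dst (ENSMUSG00000026131) lies on chromosome 1, 33908225 to 34308661, plus strand, with 20 annotated transcripts. Its exons overlap those of 2 antisense genes, Gm26788 and A930005N03Rik, which are not analysed here, and because the strand setting of the counting is not stated, their reads cannot be told apart from those of Dst. Macf1 (ENSMUSG00000028649) lies on chromosome 4, 123349633 to 123684360, minus strand. Plec (ENSMUSG00000022565) lies on chromosome 15, 76170974 to 76232574, minus strand, and shares exon sequence with Parp10 on the same strand, so its counts are uncertain to that extent. Epb41l1 (ENSMUSG00000027624) is on chromosome 2, 156420909 to 156543214, Epb41l2 (ENSMUSG00000019978) on chromosome 10, 25359798 to 25523519, and Epb41l3 (ENSMUSG00000024044) on chromosome 17, 69075683 to 69289989, all 3 on the plus strand. All 6 genes are protein coding, and the values below are read counts over the whole gene, which do not show which start or transcript was used.

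The 250 bases before the start are shown for the 2 genes that stood apart between the tissues and for Macf1, the closest relative of Dst, which did not. They come from RefSeq on build GRCm38.p6, 5′ to 3′ along the gene's own strand, and capitals mark the GC box GGGCGG on either strand. RefSeq starts were found for 5 of the 6 members, with 2 starts for Dst and 3 for Epb41l3, of which the first is printed, and Plec had no entry. The windows are chr1:34011345-34011594 and chr1:34160010-34160259 on the plus strand for Dst, chr4:123684361-123684610 on the minus strand for Macf1 and chr17:69075427-69075676 on the plus strand for Epb41l3.
Dst, first start: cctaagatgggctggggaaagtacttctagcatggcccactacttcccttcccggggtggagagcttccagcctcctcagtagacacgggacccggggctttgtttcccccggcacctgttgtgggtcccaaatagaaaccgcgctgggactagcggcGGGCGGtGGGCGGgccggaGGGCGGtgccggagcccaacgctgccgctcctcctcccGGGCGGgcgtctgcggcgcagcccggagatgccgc
Dst, second start: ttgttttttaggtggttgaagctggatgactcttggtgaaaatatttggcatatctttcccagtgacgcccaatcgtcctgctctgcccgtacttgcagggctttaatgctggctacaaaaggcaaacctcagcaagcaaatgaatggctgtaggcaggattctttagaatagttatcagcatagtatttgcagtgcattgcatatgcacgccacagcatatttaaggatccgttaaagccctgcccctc
Macf1: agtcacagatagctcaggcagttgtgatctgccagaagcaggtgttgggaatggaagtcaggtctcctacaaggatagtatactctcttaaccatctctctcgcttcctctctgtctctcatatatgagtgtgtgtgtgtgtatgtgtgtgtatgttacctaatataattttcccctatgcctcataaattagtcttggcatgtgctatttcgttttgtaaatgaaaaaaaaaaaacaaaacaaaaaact
Epb41l3, first start: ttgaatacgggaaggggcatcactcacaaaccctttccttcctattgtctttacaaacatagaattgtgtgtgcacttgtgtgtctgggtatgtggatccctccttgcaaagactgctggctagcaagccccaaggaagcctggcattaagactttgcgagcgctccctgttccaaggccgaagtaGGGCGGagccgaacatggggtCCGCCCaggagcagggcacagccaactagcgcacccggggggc

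These starts differ in base composition. The first Dst window was 68.8% G and C, with 22 CpG dinucleotides and 4 GC boxes, whereas the second was 45.2% G and C, with 5 CpG and 0 GC boxes. The Macf1 window was 38.4% G and C and held 2 CpG and 0 GC boxes. The first Epb41l3 window was 56.0% G and C, with 9 CpG and 2 GC boxes. The other 2 windows of Epb41l3, not printed, had 0 GC boxes and were 62.8% and 41.6% G and C, and the one with 41.6% held CCAAT 3 times. Epb41l1, which overlapped between the tissues, had 3 windows, not printed, of 71.2%, 75.2% and 61.2% G and C. These held 22, 29 and 10 CpG and 0, 2 and 0 GC boxes, and the third held TGANTCA 2 times. The Epb41l2 window, not printed, was 46.4% G and C, with 4 CpG and 0 GC boxes. Over all 32851 RefSeq windows of this length, the median was 52.4% G and C and 6 CpG, and 32.7% of windows held a GC box. Among the 4 printed windows, of the other letters searched on both strands, CCAAT occurred in the second Dst window and GGAATG in the Macf1 window, each once, against 33.8% and 12.6% of all windows. TATAAA, found in 12.4% of all windows, and TGANTCA, found in 6.75%, occurred in none of the 4 windows. A match of letters is a description of the sequence and not evidence of a bound factor.

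Dst, the linker of actin to microtubules and adhesion sites, separated the 2 tissues. It was at 15.1, 13.4, 6.76, 2.96, 4.80, 9.87 and 9.93 CPM in fibrous 1 to 7, against 0.749, 0.787, 0.902, 1.71, 1.84 and 1.47 CPM in bone 1 to 6. Every fibrous library lay above every bone library, with the narrowest gap between fibrous 4 and bone 5. These levels rest on 73 to 528 reads per fibrous library and 14 to 86 reads per bone library. The means were 8.98 ± 4.42 CPM (SD, n = 7) in fibrous tissue and 1.24 ± 0.489 CPM (SD, n = 6) in bone, and the fitted log2 fold change was 2.91 (SE 0.58).

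Among the 13294 genes tested, 7 (0.0527%) had every fibrous library above every bone library. Dst entered the description because of this contrast, so its place among them carries no weight. By edgeR's quasi-likelihood test, 0% of the 13294 genes passed an adjusted p of 0.05 in fibrous over bone, with 636 at an unadjusted p under 0.05, and limma-voom likewise called 0, with 1151 at that unadjusted level, while DESeq2 called 169 (148 higher and 21 lower). The Dst difference was of like size in both name series, with a log2 fold change of 3.01 (SE 0.85) in L002 alone and 2.51 (SE 0.67) in XY9274 alone. It was 3.14 without the 5 libraries low in Lepr. Leaving out 1 library at a time gave 2.65 (without fibrous 1) to 3.07 (without bone 4). These refits reuse the values that chose Dst, so they describe the difference and give it no further weight.

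**Figure D1:**
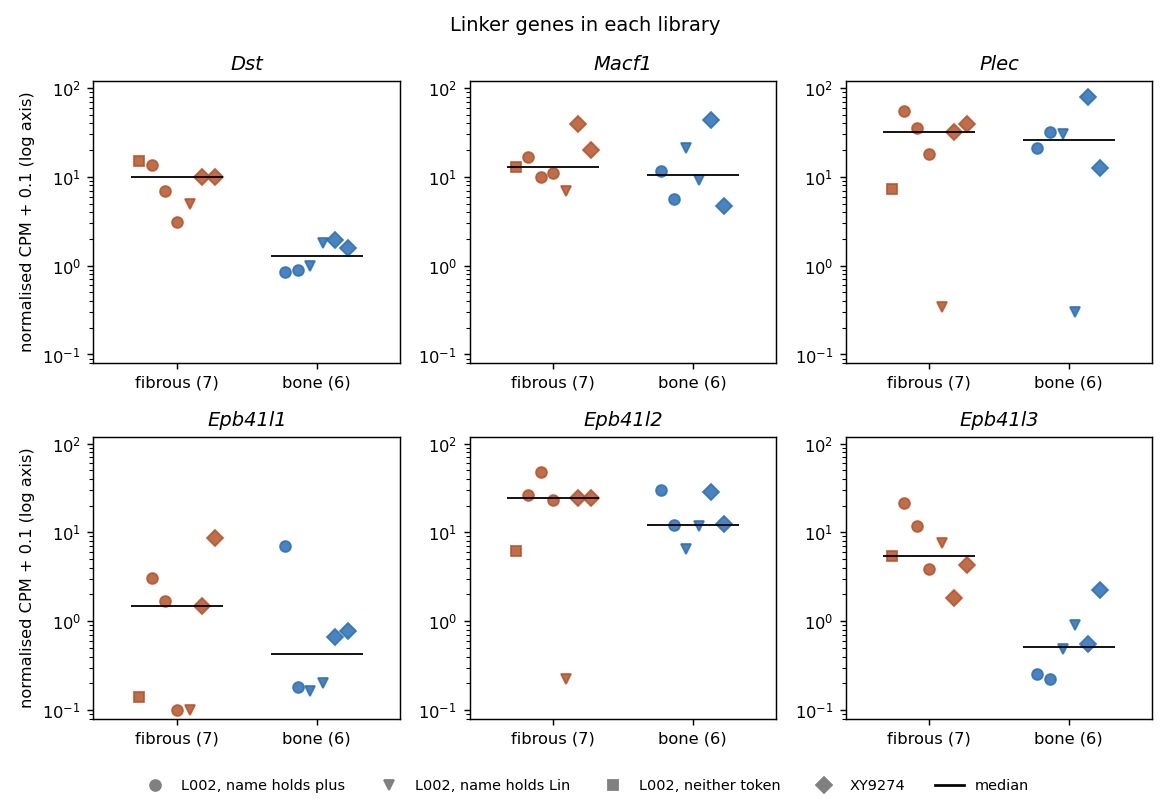
Normalised CPM plus 0.1 of the 6 members on a log axis, 1 point per library, with fibrous libraries left of bone libraries. Symbols give the name series and token, and bars are medians. The 7 fibrous libraries hold between 2.96 and 15.1 CPM of Dst and the 6 bone libraries between 0.749 and 1.84 CPM, whereas the values of Macf1, Plec and Epb41l2 overlap.

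Macf1, which shares the actin-binding and microtubule-binding ends of Dst, showed no such separation. It was at 12.8, 16.8, 9.78, 11.0, 6.77, 38.8 and 20.2 CPM in fibrous 1 to 7, against 11.5, 5.47, 21.3, 9.23, 43.2 and 4.56 CPM in bone 1 to 6. The highest values were those of fibrous 6 and bone 5, both of the XY9274 series, and the tissues overlapped over nearly their whole range. In fibrous over bone the log2 fold change was 0.057 (SE 0.49), an interval of 2 SE from -0.93 to 1.04. It was 1.21 (SE 0.62) without the 5 libraries low in Lepr, which include bone 5 and bone 3, the highest of the bone libraries. Without bone 5 alone it was 0.41, without bone 3 alone 0.30 and without bone 6 alone -0.17.

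Set against Macf1 within the same library, Dst was again mostly higher in fibrous tissue. There were 1.18, 0.801, 0.692, 0.269, 0.709, 0.255 and 0.493 Dst reads per Macf1 read in fibrous 1 to 7, against 0.0651, 0.144, 0.0424, 0.185, 0.0427 and 0.322 in bone 1 to 6. Here the tissues overlapped, because bone 6 lay above fibrous 4 and fibrous 6. This ratio does not depend on library size or normalisation, but its Dst reads are the ones that chose the gene.

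Plec, the plakin of intermediate filaments, varied more between libraries than between tissues. It was at 7.15, 54.6, 35.6, 18.2, 0.246, 31.8 and 39.2 CPM in fibrous 1 to 7, against 21.1, 32.1, 30.2, 0.201, 80.2 and 12.4 CPM in bone 1 to 6. Fibrous 5 and bone 4, both with Lin in their names, lay near 0, on 4 and 2 reads, and all other libraries held at least 7.15 CPM. Bone 3, the other library named Lin, lay at 30.2 CPM. In fibrous over bone its log2 fold change was -0.018 (SE 0.97), and leaving out 1 library gave -0.43 (without fibrous 2) to 0.42 (without bone 5). Without the 5 libraries low in Lepr it was 0.83 (SE 0.44).

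**Figure D2:**
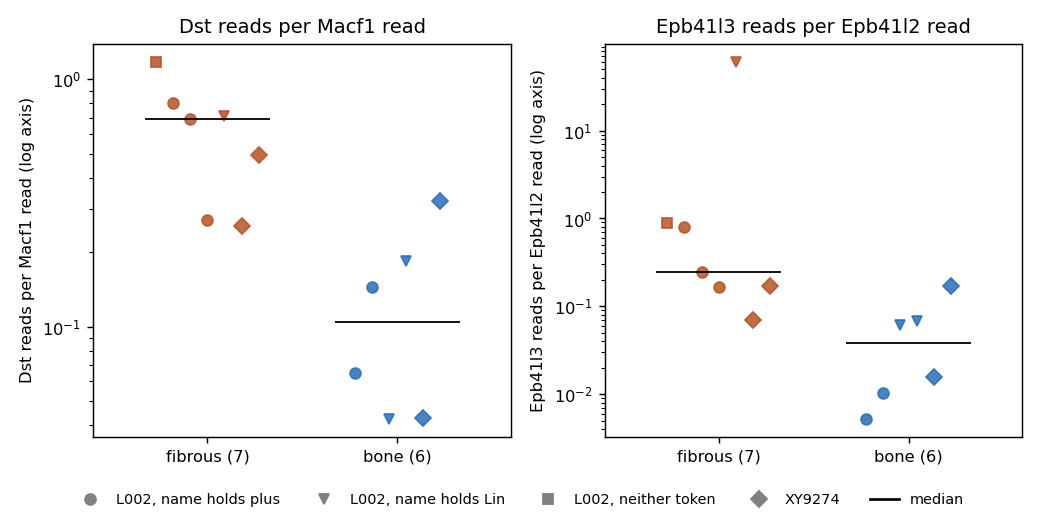
Dst reads per Macf1 read and Epb41l3 reads per Epb41l2 read in each library, on log axes, with fibrous left of bone, bars at the medians and symbols for the name series and token. Bone 6, at 0.322 Dst reads per Macf1 read, lies among the fibrous libraries, and fibrous 5 stands far above the rest at 60.5 Epb41l3 reads per Epb41l2 read because it held 2 Epb41l2 reads.

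Among the band 4.1 genes, Epb41l3 was the member with the clearest difference between tissues. That rank carries no weight, because Epb41l3 was selected on this contrast and Epb41l1 and Epb41l2 were not. The product of Epb41l3, 4.1B, links adhesion molecules to spectrin and actin. Epb41l3 was at 5.27, 21.3, 11.8, 3.82, 7.45, 1.71 and 4.15 CPM in fibrous 1 to 7, against 0.158, 0.124, 0.387, 0.803, 0.450 and 2.14 CPM in bone 1 to 6. Only fibrous 6 fell within the bone range, below bone 6, and both are XY9274 libraries. The means were 7.92 ± 6.70 CPM (SD, n = 7) in fibrous tissue and 0.677 ± 0.758 CPM (SD, n = 6) in bone, on 90 to 686 and on 3 to 70 reads per library, and the log2 fold change was 3.72 (SE 1.03). In L002 alone it was 4.72 (SE 1.04) and in XY9274 alone 1.12 (SE 1.20), and the difference between the series was not tested. Leaving out 1 library gave 3.28 (without bone 2) to 4.23 (without bone 6), and without the 5 libraries low in Lepr it was 3.71 (SE 1.82). These refits reuse the values that chose Epb41l3 and give the difference no further weight.

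Epb41l2, which encodes the widely expressed 4.1G, overlapped between tissues. It was at 6.01, 26.6, 48.2, 23.1, 0.123, 24.5 and 24.6 CPM in fibrous 1 to 7, against 29.9, 11.9, 6.38, 11.8, 28.3 and 12.4 CPM in bone 1 to 6. Fibrous 5 was again near 0, with 2 reads, although the same library held 121 reads of Epb41l3. In fibrous over bone Epb41l2 had a log2 fold change of 0.41 (SE 0.80), which was 0.022 without fibrous 3 and 0.78 without bone 1. Without the 5 libraries low in Lepr it was 0.78 (SE 0.42).

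Epb41l1, the gene of 4.1N, had reads in all libraries but fibrous 4 and 5, and varied widely among them. It was at 0.0390, 3.01, 1.58, 0, 0, 1.37 and 8.48 CPM in fibrous 1 to 7, against 6.90, 0.0829, 0.0644, 0.1003, 0.557 and 0.673 CPM in bone 1 to 6. High values stood in fibrous 7 and bone 1, and both tissues held libraries at or near 0. The log2 fold change of 0.060 (SE 1.77) rests on single libraries, since it was 3.26 without bone 1 and -0.76 without fibrous 2. Without the 5 libraries low in Lepr it was -0.20 (SE 2.11). In XY9274 alone it was 2.93, and in L002 alone the gene did not pass the filter on low counts.

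Reads per Epb41l2 read followed the pattern of Epb41l3 only in part. There were 0.877, 0.799, 0.245, 0.165, 60.5, 0.0698 and 0.169 Epb41l3 reads per Epb41l2 read in fibrous 1 to 7, against 0.00528, 0.0105, 0.0606, 0.0678, 0.0159 and 0.172 in bone 1 to 6. Bone 6 thus exceeded fibrous 4, 6 and 7, and the value of fibrous 5 has 2 reads below the line.

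Levels can be compared between genes only per length. Per kilobase of merged exons, the mean levels in fibrous tissue were 1.85 CPM for Epb41l2, 1.47 for Plec, 0.665 for Epb41l3, 0.528 for Macf1, 0.218 for Dst and 0.179 for Epb41l1. In bone the mean levels were 1.62 CPM per kilobase for Plec, 1.42 for Epb41l2, 0.505 for Macf1, 0.121 for Epb41l1, 0.0568 for Epb41l3 and 0.0302 for Dst. Epb41l3 thus stood above Macf1 in fibrous tissue and below Macf1 and Epb41l1 in bone. Neighbours in each order overlapped within 1 SD of their means. In fibrous tissue, for example, Epb41l3 had an SD of 0.563 and Macf1 of 0.342. The scale depends on which transcripts are present, since Dst has 41155 bases of merged exons and a longest transcript of 23279 bases. With the longest transcript as the length, Epb41l3 (1.94 CPM per kilobase) lay above Plec (1.73) in fibrous tissue.

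**Figure D3:**
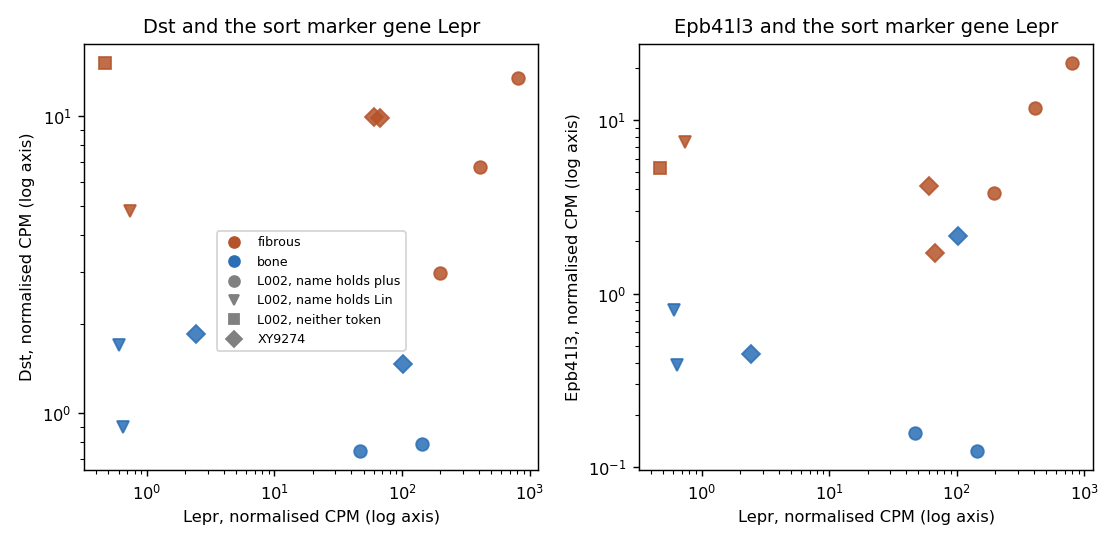
Dst and Epb41l3 in normalised CPM against Lepr in normalised CPM, 1 point per library, all axes on a log scale, coloured by tissue and with symbols for the name series and token. Fibrous 1 has the highest Dst, 15.1 CPM, at the lowest Lepr, 0.469 CPM, and bone 2 has 0.787 CPM of Dst at 143 CPM of Lepr.

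Levels of Dst and Epb41l3 followed the order of the sort marker in some libraries and not in others. In fibrous 2, 3 and 4, all named plus, Lepr was at 804, 407 and 197 CPM, Dst at 13.4, 6.76 and 2.96 CPM and Epb41l3 at 21.3, 11.8 and 3.82 CPM, all in the same order. Over all libraries Epb41l3 was highest in fibrous 2, as Lepr was. Dst, however, was highest in fibrous 1, at 15.1 CPM, where Lepr was lowest, at 0.469 CPM, and it was 0.787 CPM in bone 2, where Lepr was at 143 CPM. In fibrous 5, with Lepr at 0.739 CPM, Dst was at 4.80 and Epb41l3 at 7.45 CPM, above every bone library. In bone 6 and fibrous 6, with Lepr at 102 and 67.2 CPM, Epb41l3 was at 2.14 and 1.71 CPM.

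The library names allow comparisons that played no part in choosing the members. The first sets the 3 libraries named Lin against the 5 named plus, with tissue as a term in the fit. Lepr itself was low in all 3 libraries named Lin (0.602 to 0.739 CPM) and between 46.7 and 804 CPM in those named plus. None of the 6 members passed, against 8.16% of the 13450 genes tested (edgeR, 1097 genes, 424 higher and 673 lower in Lin). That count was 368 without bone 1, 470 without bone 2, 264 without fibrous 2, 138 without fibrous 3, 144 without bone 3 and 144 without bone 4.

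Dst averaged 2.47 ± 2.06 CPM in libraries named Lin and 4.94 ± 5.35 CPM in those named plus (SD, n = 3 and 5), and its log2 fold change with tissue in the fit was 0.15 (SE 0.95, adjusted p = 0.934), with an interval of 2 SE from -1.75 to 2.05. Macf1 had a log2 fold change of 0.15 (SE 0.70, adjusted p = 0.910) and Epb41l3 of 0.92 (SE 1.11, adjusted p = 0.632). The intervals of both genes reach beyond a doubling in either direction, and so allow sizeable differences. The estimates for Plec, Epb41l2 and Epb41l1 lay below 0. Plec had -2.29 (SE 1.90, adjusted p = 0.481), and without bone 3 it had -7.11 and passed (adjusted p = 0.0473). Epb41l2 had -2.71 (SE 1.42, adjusted p = 0.262). Epb41l1, with 0 or 1 read in each library named Lin and up to 175 reads in those named plus, had an adjusted p of 0.169. DESeq2 called Epb41l1 and Epb41l2 lower in libraries named Lin (adjusted p = 0.0335 for each). It also called 3493 of all 13358 genes it tested, 2171 of them lower, so these calls do not set the members apart.

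A pair of libraries named Lin and plus shares a further name token in each tissue. In fibrous tissue, Dst was at 4.80 CPM in the Lin and 13.4 CPM in the plus library, Epb41l3 at 7.45 and 21.3 CPM, Plec at 0.246 and 54.6 CPM, and Epb41l2 at 0.123 and 26.6 CPM. In bone, Dst was at 1.71 CPM in the Lin and 0.787 CPM in the plus library, Epb41l3 at 0.803 and 0.124 CPM, Plec at 0.201 and 32.1 CPM, and Epb41l2 at 11.8 and 11.9 CPM. Only Plec was low in both Lin libraries of these pairs by a wide margin, while Dst and Epb41l3 differed in opposite directions in the 2 pairs. Macf1 did so too, at 6.77 and 16.8 CPM in the fibrous pair and 9.23 and 5.47 CPM in the bone pair.

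The second comparison sets the 4 libraries of XY9274 against the 9 of L002, with tissue as a term. None of the 6 members passed, against 2.16% of the 13294 genes (edgeR, 287 genes, 251 higher and 36 lower in XY9274). That count was 470 without bone 1, 184 without fibrous 2, 151 without fibrous 3, 191 without bone 3, 179 without bone 4, 90 without bone 5, 87 without fibrous 6 and 137 without fibrous 7. Dst averaged 5.78 ± 4.76 CPM in XY9274 and 5.24 ± 5.51 CPM in L002 (SD, n = 4 and 9), with a log2 fold change of 0.44 (SE 0.57, adjusted p = 0.685). Macf1 averaged 26.7 ± 17.8 CPM in XY9274 and 11.6 ± 4.90 CPM in L002, a log2 fold change of 1.20 (SE 0.51, adjusted p = 0.191). For Plec the log2 fold change was 0.88 (SE 1.01, adjusted p = 0.645), for Epb41l1 1.04 (SE 1.83, adjusted p = 0.782), for Epb41l2 0.34 (SE 0.84, adjusted p = 0.850) and for Epb41l3 0.37 (SE 1.00, adjusted p = 0.864). All 6 estimates lay above 0, as did the median of all genes, 0.052.

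**Figure D4:**
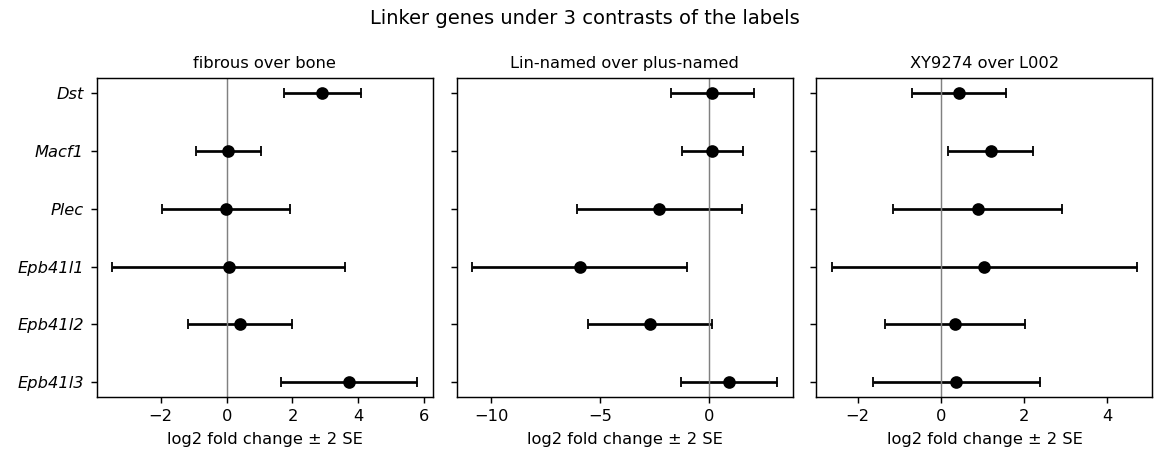
Log2 fold changes of the 6 members in fibrous over bone, Lin over plus and XY9274 over L002, with bars of 2 SE. Dst at 2.91 and Epb41l3 at 3.72 in fibrous over bone are the values that chose these genes, and none of the 6 members passed an adjusted p of 0.05 in the other 2 comparisons.

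Genes whose pattern was most like that of a member were ranked by Pearson's r of log2(CPM + 1) over the 13 libraries, among 9579 genes. The points share depth, tissue and cell mixture, and the r values describe these libraries only. For Dst the 8 nearest were Sardh (r = 0.81), which degrades sarcosine, Gpr176 (0.79), an orphan G protein-coupled receptor, Lamb1 (0.79), a laminin chain of basement membranes, Tmem110 (0.78), Mrc2 (0.77), an endocytic collagen receptor, Arhgef40 (0.77), Steap4 (0.76), a metalloreductase, and Ccdc93 (0.76). Gpr176 and Lamb1 were also the genes nearest to Epb41l3 (r = 0.96 and 0.85), followed by Pdk4 (0.85), a kinase of pyruvate dehydrogenase. Because Dst and Epb41l3 were both chosen on fibrous over bone in these libraries, shared neighbours are partly built in by that choice. Gpr176 lay between 2.61 and 29.2 CPM in fibrous libraries and between 0 and 2.42 CPM in bone libraries.

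The members were compared with each other on the same scale. Dst and Epb41l3 had r = 0.79, and Dst had 0.30 with Macf1 and 0.068 with Plec. Dst and Epb41l3 were both chosen for their fibrous over bone difference in these libraries, and Macf1 and Plec were not. The contrast between these r values is therefore partly built in by that choice. Plec and Epb41l2 had r = 0.71. Nearest to Macf1 were Dusp6 (0.93) and Dusp5 (0.89), phosphatases of MAP kinases, and Zmiz1 (0.90), a transcriptional coregulator. Plec lay nearest to Rara (0.96), a retinoic acid receptor, Pik3ip1 (0.94) and Tsr1 (0.93). Epb41l1 lay nearest to Bmp7 (0.89), a bone morphogenetic protein, Chsy3 (0.85) and Col18a1 (0.83), and Epb41l2 to Rprd1a (0.90), Klhl21 (0.89) and Kdsr (0.89).

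Partners of these linkers were followed as 8 gene lists, beside a list of other very long transcripts, none of which includes the 6 members. In fibrous over bone 0 members of any list passed by edgeR, as over all genes, so counts above 0 and medians are given. The median log2 fold change was 0.026 over all genes. The list labelled spectraplakin and plakin family had 6 tested genes, Gas2, Gas2l1, Gas2l3, Syne1, Syne2 and Utrn, none a spectraplakin or plakin itself. Of these 6 genes 3 lay above 0, with a median of -0.19. Of the 4 hemidesmosome partners of BP230 and plectin 2 did, with a median of -0.33. All 5 tested intermediate filament genes lay above 0 (median 0.48), with Vim, vimentin, at 220.2 ± 157 CPM in fibrous tissue and 159 ± 112 CPM in bone (SD, n = 7 and 6). Of 14 microtubule partners 13 lay above 0 (median 0.36), of 18 integrin-actin linkage genes 14 (0.30), and of 12 spectrin skeleton genes 11 (0.33). Of 10 band 4.1 and FERM relatives 7 lay above 0 (0.35), and of 10 band 4.1 membrane partners 5 (0.051). Single members lay far from these medians, among them a pair named after their values were seen. Epb41l5, a band 4.1 relative, was at 5.06 ± 2.70 CPM in fibrous tissue and 1.30 ± 1.91 CPM in bone (SD, n = 7 and 6; log2 fold change 3.11, SE 0.97), and did not pass. Dlg4, a membrane scaffold protein, was at 1.40 ± 1.37 CPM in fibrous tissue and 0.113 ± 0.220 CPM in bone (log2 fold change 4.14, SE 1.47), and did not pass either.

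Very long transcripts need their own comparison, because Dst and Macf1 are among the longest genes counted. Of 24 long transcripts of broad expression, 18 had a log2 fold change above 0 in fibrous over bone, with a median of 0.44. By the longest annotated transcript, the 124 tested genes over 12000 bases had a median of 0.32, against -0.25 for the 3556 genes of at most 2000 bases. The median was 0.20 for genes of over 4000 to 8000 bases and 0.35 for those of over 8000 to 12000 bases. Macf1, whose longest transcript has 23495 bases, was at 0.057, and Dst, with 23279 bases, at 2.91. The part of transcript length in the Dst difference and in the medians of the partner lists was not tested.

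**Figure D5:**
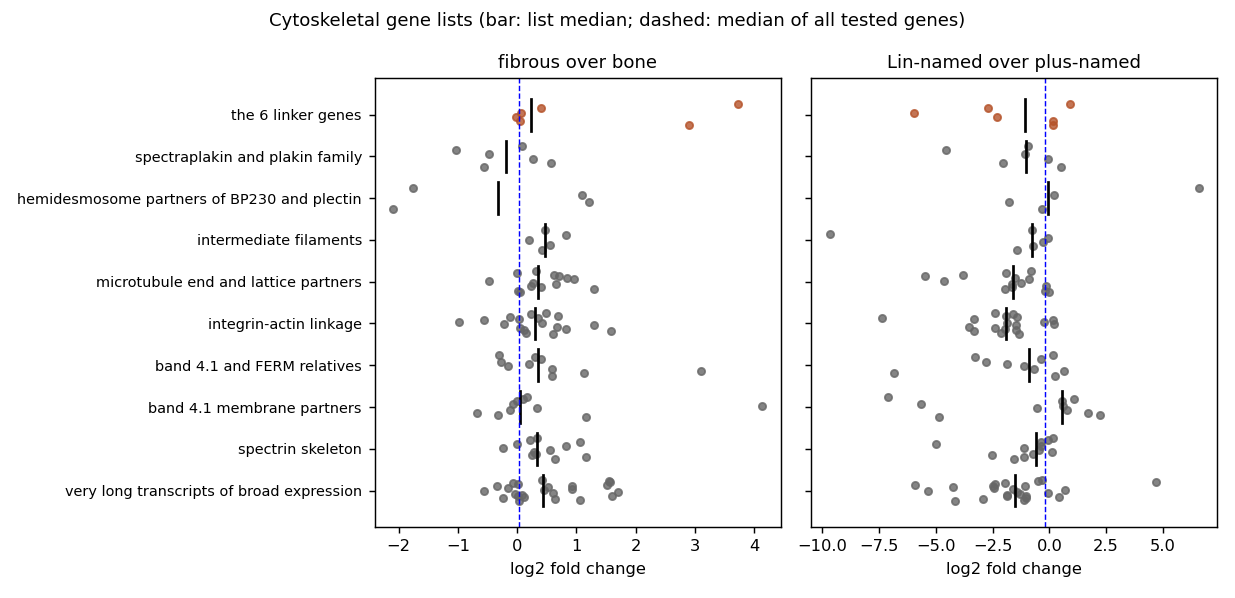
Log2 fold changes of fibrous over bone (left) and Lin over plus (right) for the 6 linker genes and the tested members of each partner list, 1 point per gene, with bars at list medians and a dashed line at the median of all genes. In fibrous over bone the list labelled spectraplakin and plakin family has a median of -0.19, the list of very long transcripts 0.44 and all genes 0.026. The tested genes of that family list are Gas2, Gas2l1, Gas2l3, Syne1, Syne2 and Utrn, not spectraplakins or plakins themselves.

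In libraries named Lin, linkers of adhesion sites were among the genes that passed. Over all genes 5% passed as lower and 3.15% as higher in Lin. Markers of stromal cells moved with them, with sums of 14.2 to 24.7 CPM in Lin and 812 to 10757 CPM in plus libraries for marrow stromal genes, 864 to 6209 and 24300 to 80112 CPM for fibroblast and matrix genes, and 229 to 937 and 3464 to 6660 CPM for osteoblast genes. Their part in the list results below was not tested. Of 18 integrin-actin linkage genes 4 were lower and 0 higher than in libraries named plus, with a list median of -1.89 against -0.21 over all genes. The median was -1.59 for the microtubule partners and -1.51 for the 24 very long transcripts, of which 3 lay above 0. The low median is thus not particular to linkers of adhesion sites. Itga5, the fibronectin receptor chain, had a log2 fold change of -2.15 (SE 0.41, adjusted p = 0.0275) and Actn4, which crosslinks actin, -1.92 (SE 0.39, adjusted p = 0.0326). Itgb1, an integrin chain named after its values were seen, had -1.35 (SE 0.32, adjusted p = 0.0439). Each of Itga5 and Actn4 passed in 2 of 8 fits that left out 1 library.

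Among band 4.1 and FERM relatives 3 of 10 were lower in Lin, against 5% of all genes. These were Msn (-1.86, SE 0.41, adjusted p = 0.0386) and Rdx (-1.11, SE 0.26, adjusted p = 0.0415), which tie actin to the membrane, and Epb41l4b, at 0.0884 CPM in Lin and 9.80 CPM in plus libraries. Of 10 band 4.1 membrane partners, Cadm1, an adhesion molecule, was lower (-4.88, SE 0.99, adjusted p = 0.0325), as was Slc9a3r2, a scaffold protein, at 0.197 CPM in Lin and 21.5 CPM in plus libraries. Mpp1, the palmitoylated protein that joins band 4.1 in the red cell membrane, was higher (1.70, SE 0.30, adjusted p = 0.0246). It averaged 1046 CPM in Lin and 311 CPM in plus libraries, whose haemoglobin shares were 19.97% to 35.3% and 2.77% to 7.47%. The part of red cell RNA in this difference was not tested. With 1 library left out, Msn, Cadm1 and Mpp1 each passed in 2 of 8 fits and Rdx in 1.

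The other lists held at most 2 calls each. Of 14 microtubule partners 2 were lower in Lin, Map4 (-3.81, SE 0.86, adjusted p = 0.0399), which coats microtubules, and Kif5b (-1.92, SE 0.45, adjusted p = 0.0429), a kinesin motor. Mapre1, the microtubule end protein EB1 that spectraplakins bind, had -0.028 (SE 0.17, adjusted p = 0.930). Of 24 very long transcripts 2 were lower and 0 higher, near the 8.16% of all genes called in either direction. These were Lrp1, an endocytic receptor (-5.94, SE 0.61, adjusted p = 0.0110), and Dync1h1, the dynein heavy chain (-4.16, SE 1.00, adjusted p = 0.0456). Lrp1 passed in 8 of 8 fits that left out 1 library and Slc9a3r2 in 7 of 8, whereas Kif5b and Dync1h1 passed in 1 and Map4 and Epb41l4b in 0. The lists labelled plakin family, hemidesmosome, intermediate filament and spectrin held 0 calls among 6, 4, 6 and 12 tested genes. No plakin was among the tested genes of the plakin family list.

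Between the name series, 5 partners were higher in XY9274 and 0 lower, where 1.89% of all genes were higher. Pan-leukocyte genes summed to 881 to 6833 CPM in XY9274 and 203 to 1627 CPM in L002. B cell genes summed to 491 to 16160 CPM in XY9274 and 58.4 to 1608 CPM in L002. Bone 5 held the highest sum of both lists, and fibrous 6 the next in XY9274, at 2016 and 1711 CPM. Of these markers 0 passed, and their part was not tested. Of 18 integrin-actin linkage genes the higher partners were Tln1, talin (2.51, SE 0.49, adjusted p = 0.0212), and Pxn, paxillin (2.45, SE 0.51, adjusted p = 0.0296). Of 12 spectrin skeleton genes they were Sptbn1 (3.54, SE 0.68, adjusted p = 0.0199) and Sptb (2.38, SE 0.53, adjusted p = 0.0409), the beta spectrins, and of 14 microtubule partners Camsap2 (2.11, SE 0.49, adjusted p = 0.0470), which holds microtubule minus ends. The other 6 lists held 0 calls. Tln1 and Sptbn1 passed in 11 of 13 fits that left out 1 library, Pxn in 7, Sptb in 3 and Camsap2 in 2. Of the 24 very long transcripts 23 lay above 0, with a median of 1.32, and Dst, at 0.44, lay below that median.

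Markers of other cell types moved between libraries in ways that overlapped between the tissues for all 13 marker lists. The summed level of the 8 marrow stromal markers ran from 24.7 to 10757 CPM in fibrous libraries and from 14.2 to 1400 CPM in bone libraries. For 7 fibroblast and matrix genes it ran from 6209 to 80112 CPM and from 864 to 50707 CPM. For 6 cartilage genes the ranges were 1654 to 43593 CPM in fibrous and 298 to 35961 CPM in bone, and for 5 osteoblast genes 937 to 6660 CPM in fibrous and 229 to 5241 CPM in bone. The fibrous ranges of these lists thus began and ended higher.

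Blood cell markers reached higher sums in bone libraries. The sum of 7 erythroid genes ran from 8544 to 235544 CPM in fibrous and from 1819 to 593546 CPM in bone libraries, and that of 7 neutrophil genes from 623 to 22205 CPM in fibrous and from 1473 to 89186 CPM in bone. For 6 pan-leukocyte genes the ranges were 203 to 2016 CPM in fibrous and 233 to 6833 CPM in bone, for 6 macrophage genes 30.4 to 237 CPM in fibrous and 26.9 to 1366 CPM in bone, and for 5 B cell genes 58.4 to 1711 CPM in fibrous and 68.3 to 16160 CPM in bone. Fibrous 1, with the highest Dst, held 30.4 CPM of macrophage and 623 CPM of neutrophil markers, both the lowest of the fibrous libraries. Its erythroid sum, however, was 137315 CPM, which only fibrous 5 exceeded among the fibrous libraries. Pan-leukocyte genes summed to 237 CPM and B cell genes to 145 CPM in fibrous 1, neither the lowest.

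Dystonin and band 4.1 proteins are well known from epithelium, muscle and nerve, and markers of these tissues were also summed. Epithelial markers, of which 3 of 6 listed genes were counted, summed to 0 to 4.15 CPM in fibrous and 0 to 6.23 CPM in bone libraries. Muscle markers, with 3 of 6 counted, summed to 0.209 to 37.7 CPM in fibrous and 0 to 1.499 CPM in bone, and fibrous 5 held the 37.7 CPM. Schwann and neural markers summed to 36.9 to 96.8 CPM in fibrous and 8.03 to 112 CPM in bone. Endothelial markers summed to 0.123 to 36.5 CPM in fibrous and 0.473 to 44.2 CPM in bone. The part of these cell types in the differences of Dst and Epb41l3 was not tested.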

How the data were processed

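The authors deposited one matrix of raw counts per gene for 13 libraries, whole numbers for 23211 mouse Ensembl gene IDs. Per the submitters' processing notes, edgeR and the builds mm10 and hg38 were named, with no role or version. The aligner, the counting tool, the annotation and the strand setting are not given by the sources used here. Each of the 23211 IDs had a symbol and a gene of GENCODE M21, from which coordinates and lengths were taken.

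Counts were tested with edgeR 4.0.16 (R 4.3.3): TMM factors, filterByExpr, robust dispersion estimates and quasi-likelihood F tests, with Benjamini-Hochberg adjustment over all genes tested and a threshold of 0.05. Fibrous over bone and XY9274 over L002 came from 1 fit of all 13 libraries with tissue and name series as terms (13294 genes). Lin over plus used 8 L002 libraries with tissue as a term (13450 genes). SEs were obtained as the log2 fold change over the root of the F statistic. Fitted fold changes of genes near 0 counts depend on the prior count. Normalised CPM are CPM on TMM-scaled library sizes. Alternatives were DESeq2 1.42.0, limma-voom with sample quality weights (limma 3.58.1), RLE factors, no filter, each library left out, subsets of libraries and other model terms. The fitting was tested on simulated data.

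Replicate numbers follow accession order and pair no libraries. The 6 members and the 9 partner and 13 cell type marker lists were chosen with earlier results of these data known. Named genes were the members, the 8 genes most like Dst and the 3 most like each other member by Pearson's r (mean of at least 5 CPM, leaving out symbols of Gm plus digits or ending in Rik), and up to 4 genes per list, called genes first, then those of highest mean CPM; a subset of the list genes is described. Itgb1, Epb41l5, Dlg4 and the genes of non-overlapping groups were taken outside that rule, after their values were seen. Promoter windows are RefSeq's on GRCm38.p6.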

Additional observations from a re-analysis of the deposited data

Results flagged for a closer look

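Members stood apart within a set of libraries in 6 cases by Dixon's test, whose 95% critical value is 0.568 for 7 libraries, 0.625 for 6, 0.710 for 5, 0.829 for 4 and 0.493 for 9. Chance flags about 1 in 20 sets of normally distributed values, and 30 sets were tested. The CPM were not log-transformed and the sets share libraries, so that rate is only a guide.

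Macf1 in fibrous 6 was at 38.8 CPM, with the next fibrous library at 20.2 CPM. Epb41l1 in fibrous 7 was at 8.48 CPM, apart from the fibrous libraries, with the next at 3.01 CPM, and apart from the XY9274 libraries, with the next at 1.37 CPM. Epb41l1 in bone 1 was at 6.90 CPM, apart from the bone libraries, with the next at 0.673 CPM, and apart from the L002 libraries, with the next at 3.01 CPM. Epb41l3 in bone 6 was at 2.14 CPM, with the next bone library at 0.803 CPM. No Dst, Plec or Epb41l2 value was flagged in any of these sets.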

How the results depend on the processing

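Dst, Epb41l2 and Epb41l3 kept a log2 fold change above 0 in fibrous over bone under all 22 alternatives. They ran over 2.51 to 3.16, 0.022 to 0.78 and 1.12 to 4.72. Dst and Epb41l3 were chosen on this contrast, so their constant sign carries no weight. Macf1, Plec and Epb41l1, close to 0 in the main fit, did not keep one sign. Their values ran from -0.17 to 1.21, -0.47 to 0.83 and -0.76 to 3.26. The number of genes called was 169 with DESeq2 in fibrous over bone. In Lin over plus it was 3493 with DESeq2, 566 with limma-voom and 15 with the shared name token as a replicate block, and 138 to 992 with 1 library left out. In XY9274 over L002 it was 1982 with DESeq2, 2864 with limma-voom and 87 to 470 with 1 library left out. The block used 4 libraries, and the labels do not say that such libraries were paired.

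Estimates of members that changed sign were all uncalled. In Lin over plus, Dst was at -0.25 with limma-voom, -1.03 without the tissue term and -0.23 with the replicate block, Epb41l3 at -0.37 with limma-voom and -1.40 without the tissue term, and Macf1 at -0.30 with the block. In XY9274 over L002, Epb41l3 was at -1.42 with limma-voom and Epb41l2 at -0.11 without the libraries named Lin. With 1 library left out, Dst ran from -0.24 to 0.75 and Macf1 from -0.38 to 0.84 in Lin over plus, and Epb41l3 from -0.86 to 1.03 and Epb41l1 from -0.54 to 2.59 in XY9274 over L002. The cause was not tested. Calls of the 17 partner genes named were lost in 131 of 258 alternative fits, with 0 changes of sign. Depth limits Dst in bone, where it had 14 to 86 reads per library, and Epb41l3, with 3 to 70. The median of all genes was 0.29 in XY9274 over L002 with no filter, against 0.052.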

Other observations

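The 7 genes with every fibrous library above every bone library were Rac3, Osr2, Dst, Gpr176, Mc2r, Gm10658 and Gm20632, named after their values were seen, and 2 genes had every bone library above every fibrous library. Rac3, a small GTPase of actin assembly, was at no less than 1.72 CPM in fibrous and no more than 0.857 CPM in bone libraries. Osr2, a transcription factor of skeletal development, was at no less than 0.532 CPM in fibrous and no more than 0.343 CPM in bone. For Dst the corresponding values were 2.96 and 1.84 CPM. Gpr176, which also had the pattern nearest to Epb41l3, was at no less than 2.61 CPM in fibrous and no more than 2.42 CPM in bone libraries.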
